A study of Mus musculus with 24 samples.

Results

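The endoplasmic reticulum (ER) stress genes described here are 10 named genes: Hspa5, Ddit3, Atf4, Atf3, Xbp1, Herpud1, Dnajb9, Trib3, Sdf2l1 and Pdia4. They were chosen by name, and each was read from the probe set of highest mean among those assigned to that gene alone. By this rule 8 of the 10 were measured, each on 1 probe set, out of 18820 genes with a probe set of their own. Ddit3 (CHOP) was present only on a probe set shared with Mars1, and Pdia4 (the disulfide isomerase ERp72) only on one shared with Mir704, so no value is given for either.

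Liver RNA came from 24 male C57BL/6J mice, 4 to 6 months old, with 8 mice in each of 3 diet groups and 1 array per mouse. For 7 weeks the mice ate high-fat diets that all held 45% of their energy as fat. Cocoa butter supplied it in the Saturated diet, a mix of palm olein and canola oils in the Cis diet, and soy oil hardened by partial hydrogenation in the Trans diet. All groups were thus fed high fat, and no low-fat group was compared. Signals below are on the linear scale in arbitrary units, and differences are on the log2 scale.

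Proteins that enter the secretory pathway fold in the ER, and the liver is one of the organs with the heaviest secretory load. When unfolded protein accumulates, the membrane sensors IRE1, PERK and ATF6 start the unfolded protein response. IRE1 splices the Xbp1 messenger, PERK phosphorylates eIF2alpha and so lets Atf4 be translated, and ATF6 is cut free to enter the nucleus. Their combined output is more chaperone, more degradation of misfolded protein and, under lasting stress, the ATF4 and CHOP arm with Atf3 and Trib3. Splicing, translation and cleavage are not read by these arrays, so the values for Xbp1 and Atf4 are total messenger only.

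Several of these genes hold letters around their start site that match a known response element of the pathway. Those stretches are printed here, beside those of 2 genes, Creld2 and Syvn1, whose levels ran with Hspa5 from liver to liver. Whether a match acts as a response element was not tested. Sequences are from RefSeq (GRCm38.p6), read 5′ to 3′ on the strand of the gene from its window of 250 bases before to 50 bases after the start site. All 10 genes were in that table. Capitals mark the match. In Hspa5, Creld2 and Syvn1 it is the ER stress element, CCAAT and CCACG with 9 bases between them, which in Creld2 lies on the opposite strand. In Atf3, Herpud1 and Trib3 the capitals mark the core of the C/EBP-ATF response element, TGATGNAA, found on the opposite strand, and the second run of capitals in Herpud1 is the ER stress element II, ATTGG and CCACG with 1 base between them.
Hspa5, chr2:34771980-34772088, plus strand: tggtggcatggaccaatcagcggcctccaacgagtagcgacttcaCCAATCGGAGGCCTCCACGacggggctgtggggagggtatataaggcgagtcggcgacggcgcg
Creld2, chr15:88819475-88819583, plus strand: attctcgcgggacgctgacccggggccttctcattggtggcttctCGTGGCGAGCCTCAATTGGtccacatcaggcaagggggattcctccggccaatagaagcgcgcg
Syvn1, chr19:6046487-6046575, plus strand: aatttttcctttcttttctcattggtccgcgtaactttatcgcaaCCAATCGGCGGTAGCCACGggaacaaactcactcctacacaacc
Herpud1, chr8:94386272-94386428, plus strand: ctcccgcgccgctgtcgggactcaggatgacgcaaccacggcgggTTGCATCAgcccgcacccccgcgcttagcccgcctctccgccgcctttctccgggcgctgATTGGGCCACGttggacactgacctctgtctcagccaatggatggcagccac
Atf3, chr1:191183391-191183488, minus strand: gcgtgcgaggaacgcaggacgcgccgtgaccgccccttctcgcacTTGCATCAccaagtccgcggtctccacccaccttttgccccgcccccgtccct
Trib3, chr2:152344039-152344091, minus strand: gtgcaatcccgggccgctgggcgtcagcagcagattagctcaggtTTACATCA
Only exact matches to the letters of each element were counted, so near matches are neither counted nor marked. The ER stress element was found in 39 of 32851 promoter windows (0.119%) when both strands were searched, and Hspa5, at bases -65 to -47, was the only one of the 10 genes with it. The element II was in 12 windows (0.0365%), among them Herpud1 at -52 to -42. The C/EBP-ATF core was in 1304 windows (3.97%), including Atf3 at -110 to -103, Herpud1 at -112 to -105 and Trib3 at 15 to 22 after the start. Neither the unfolded protein response element TGACGTGG, in 0.676% of the windows, nor the cyclic AMP response element TGACGTCA, in 1.79%, was found in any of the 10. Within the ER stress element the CCAAT and CCACG letters overlap the shorter matches, which alone are in 37.4% and 32.8% of windows.

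No ER stress gene passed the test in any comparison of diets. The smallest unadjusted p were those of the lower means of Atf4 and Dnajb9 in Trans than in Saturated, by 0.33 and 0.38 on the log2 scale, and they failed the correction over all probe sets. In limma, 0 of 8 genes were called for Trans against Saturated, 0 of 8 for Trans against Cis and 0 of 8 for Cis against Saturated. Over all 35556 probe sets the calls were 3 (0.00844%), 1 (0.00281%) and 0 (0%). At an unadjusted p under 0.05, 3 of the 8 genes were lower and 0 higher in Trans against Saturated, 2 lower and 0 higher in Trans against Cis, and 1 lower and 0 higher in Cis against Saturated. The shares of all probe sets that were lower at that threshold were 3.54%, 3.12% and 3.27%, and those that were higher 3.79%, 3.05% and 3.3%. The methods' Tukey post hoc test, unadjusted over probe sets, passed 2, 1 and 0 of the 8 genes, against 3.32%, 2.66% and 2.84% of all probe sets, and 0 after Benjamini-Hochberg adjustment. The median log2 difference of the 8 genes was -0.16 in Trans against Saturated, -0.13 in Trans against Cis and -0.01 in Cis against Saturated, whereas over all 18820 genes it was 0.00 in each. The mean was lower for 5 of the 8 genes in each comparison, beside 48.4%, 49.5% and 48.6% of all genes. The comparisons share diet groups and are not independent of each other.

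**Figure D1:**
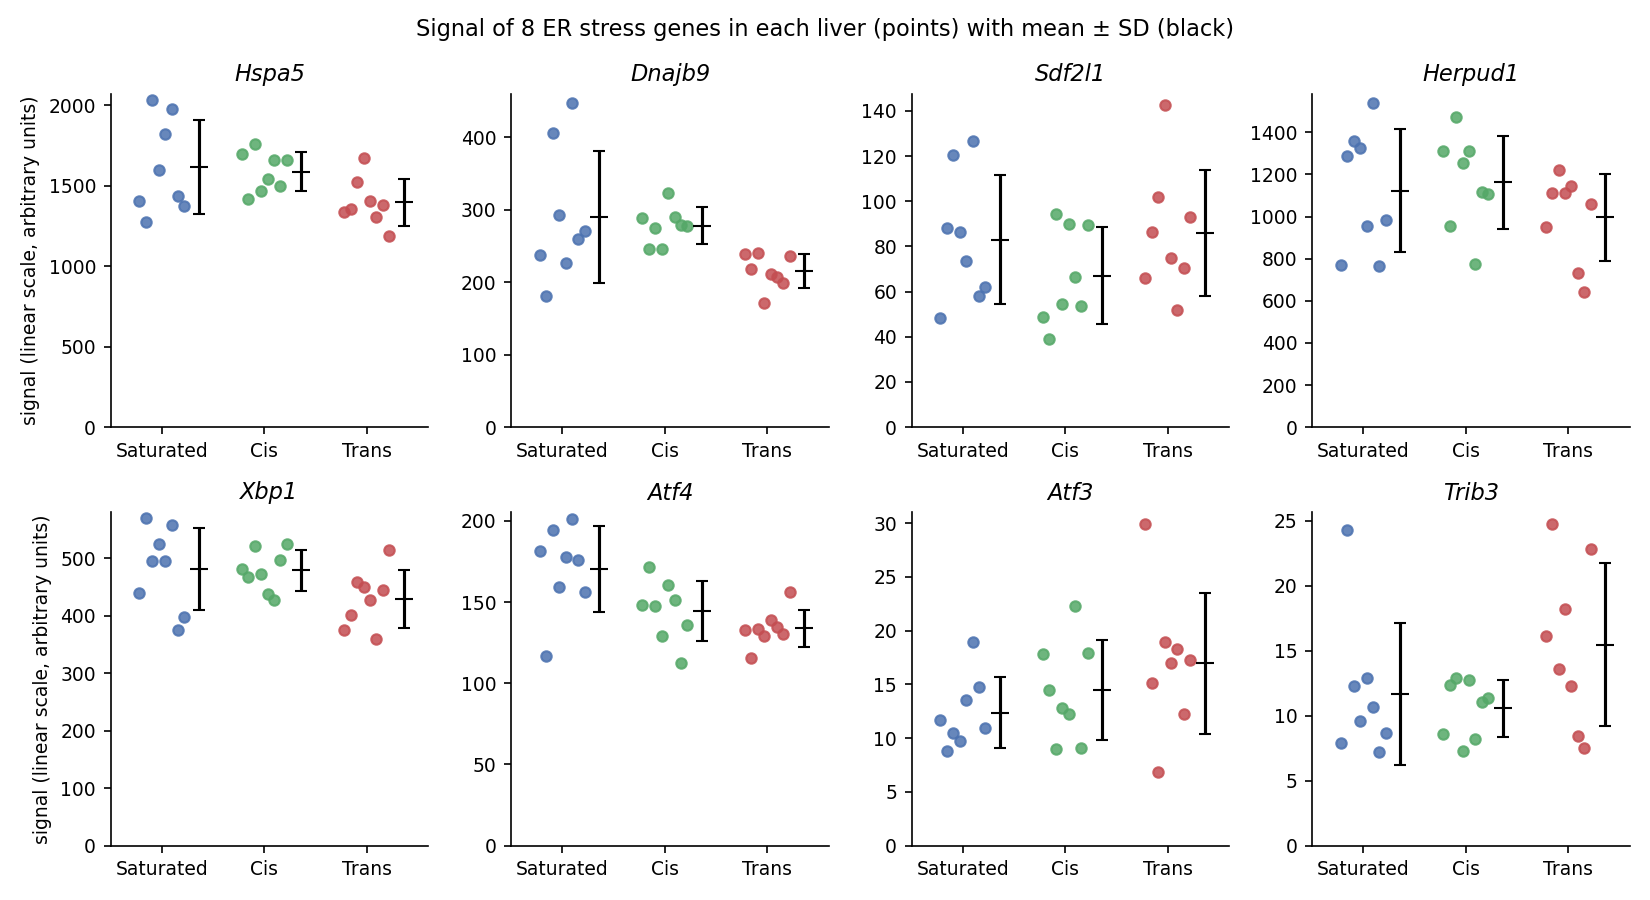
Signal of the 8 measured ER stress genes (linear scale, arbitrary units, axes from 0) in each of 8 Saturated, 8 Cis and 8 Trans livers, with the mean ± SD in black. The Trans livers lie below all 8 Cis livers only for Dnajb9, and the Saturated points are the most spread for Hspa5 and Dnajb9.

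Hspa5 encodes BiP, the abundant ER chaperone that also holds the sensors inactive. Its signal was 1406, 1277, 2031, 1600, 1822, 1975, 1439 and 1373 in Saturated replicates 1 to 8. In the Cis livers it was 1697, 1417, 1762, 1470, 1543, 1659, 1499 and 1658, and in the Trans livers 1335, 1358, 1524, 1670, 1402, 1308, 1383 and 1188. Saturated replicates 3, 5 and 6 stood above every Cis and Trans liver, while the other Saturated livers lay among the Trans livers. The means were 1615 ± 291 in Saturated, 1588 ± 123 in Cis and 1396 ± 145 in Trans (SD, n = 8 each). Trans was lower than Saturated by 0.20 on the log2 scale, a 1.15-fold difference with a 95% confidence interval of -0.39 to -0.01 and an adjusted p of 0.661 (limma, two-sided). Of the 8 Trans livers, 7 were below the Saturated mean, yet only 1 was below the lowest Saturated liver. Against Cis the difference was -0.19 (adjusted p = 0.802 in limma), and 6 of the 8 Trans livers were below the lowest Cis liver. Cis and Saturated differed by -0.01, with an interval of -0.20 to 0.18. The Trans against Saturated difference ranged from -0.24 without Saturated replicate 2 to -0.15 without Saturated replicate 3.

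Dnajb9 encodes ERdj4, a co-chaperone that brings substrates to BiP, and it showed the plainest separation of all 8 genes. Its signal in the Saturated livers was 237, 182, 407, 292, 226, 447, 260 and 271. It was 289, 246, 275, 245, 324, 290, 280 and 278 in the Cis livers and 239, 219, 240, 172, 212, 208, 199 and 237 in the Trans livers. The highest Trans liver, at 240, was below the lowest Cis liver, at 245, so the 2 diets did not overlap. Such a gap in the same direction was found for 6 of 35556 probe sets (0.0169%). None of the 8 genes was free of overlap in Trans against Saturated or in Cis against Saturated, where 0.0225% and 0.0197% of probe sets had such a gap downward. Saturated, in contrast, spanned both other groups, with replicates 3 and 6 far above and replicate 2 among the lowest. Trans was lower than Cis by 0.37 on the log2 scale (95% confidence interval -0.65 to -0.09, 1.29-fold, adjusted p = 0.755 in limma) and lower than Saturated by 0.38 (-0.66 to -0.10, 1.30-fold, adjusted p = 0.529 in limma). Cis against Saturated was -0.01. With only the Trans and Cis diets in the fit, the adjusted p for that pair was 0.589 in limma. Trans against Saturated ranged from -0.47 without Saturated replicate 2 to -0.28 without Saturated replicate 6. The log2 SD of Dnajb9 was 0.43 in Saturated, 0.13 in Cis and 0.16 in Trans.

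Sdf2l1, an ER luminal protein that works in a complex with BiP and its co-chaperones, varied more among livers than by diet. Its signal ranged from 48.5 through a median of 79.8 to 127 in Saturated, from 38.9 through 60.5 to 94.5 in Cis, and from 52.1 through 80.6 to 143 in Trans. The 3 groups overlapped. Trans against Cis gave 0.36 on the log2 scale with an interval of -0.10 to 0.83, and Trans against Saturated 0.06 with -0.40 to 0.53. The SD around the diet means was 0.47 on the log2 scale, larger than that of 98.3% of all genes. The sign of Trans against Saturated turned, to -0.05, when Trans replicate 4, the highest liver, was left out.

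Herpud1 encodes an ER membrane protein that helps in the degradation of misfolded proteins. The lowest, median and highest signals were 767, 1136 and 1539 in Saturated, 773, 1184 and 1471 in Cis, and 642, 1086 and 1219 in Trans. Trans replicates 6 and 7 stood below the lowest liver of either other diet, and the rest overlapped. Trans was at -0.23 against Cis (interval -0.57 to 0.11, adjusted p = 0.862 in limma) and -0.16 against Saturated (-0.50 to 0.18, adjusted p = 0.898 in limma). The first difference was -0.14 and the second -0.07 without Trans replicate 7. Herpud1 also varied widely, with a larger SD than 94.2% of all genes.

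Xbp1, the transcription factor whose messenger IRE1 splices, was nearly equal in Saturated (375, 494 and 570 as lowest, median and highest) and Cis (428, 477 and 525). The Trans livers ran from 359 through 436 to 515, and 4 of them were below the lowest Cis liver. Trans against Cis was -0.16 (-0.34 to 0.02, adjusted p = 0.807 in limma), Trans against Saturated -0.16 (-0.34 to 0.02, adjusted p = 0.717 in limma), and Cis against Saturated 0.00 (-0.18 to 0.18).

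Atf4 is the factor that turns on amino acid and stress genes once eIF2alpha is phosphorylated, and it had the smallest p of the 8 genes. Its signal was 181, 117, 194, 159, 178, 201, 176 and 156 in Saturated. The Cis livers read 148, 171, 147, 129, 160, 151, 112 and 136, and the Trans livers 133, 116, 133, 129, 139, 135, 130 and 156. In 6 of the 8 Saturated livers Atf4 was above the highest Trans liver, replicate 8 was level with it at 156, and replicate 2 was lower than 7 of the 8 Trans livers. The means were 170 ± 26.5, 144 ± 18.4 and 134 ± 11.4 (SD, n = 8 each). Trans was lower than Saturated by 0.33 on the log2 scale (95% confidence interval -0.53 to -0.13, 1.26-fold) with a p of 0.00205 and an adjusted p of 0.372 in limma. Without Saturated replicate 2 the difference was -0.41 and the adjusted p 0.0750, the lowest of any single left-out liver, still above 0.05. Cis was lower than Saturated by 0.23 (-0.43 to -0.03, adjusted p = 0.700 in limma), and Trans against Cis was -0.10 (-0.30 to 0.10, adjusted p = 0.909 in limma).

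Atf3 and Trib3, which lie downstream of ATF4, were the dimmest of the 8 genes, with mean signals of 14.6 and 12.6, under the signal of 20 that 8349 of the 18820 genes exceeded. Atf3, a repressor induced by many stresses, ran from 8.78 through 11.3 to 18.9 in Saturated, from 9.01 through 13.6 to 22.3 in Cis, and from 6.89 through 17.1 to 29.9 in Trans. The Trans livers held both the lowest and the highest value of all 24. Trans against Saturated was 0.39 (-0.08 to 0.87, adjusted p = 0.757 in limma), and 7 of the 8 Trans livers exceeded the Saturated mean. Trib3, a pseudokinase that binds the kinase AKT, ran from 7.20 through 10.1 to 24.3 in Saturated, from 7.30 through 11.2 to 12.9 in Cis, and from 7.50 through 14.9 to 24.7 in Trans. The signal was above the highest Cis liver in 5 of the 8 Trans livers. Trans against Cis was 0.47 (-0.04 to 0.97, adjusted p = 0.806 in limma), and Trans against Saturated 0.40 (-0.11 to 0.90, adjusted p = 0.775 in limma). The single high Saturated liver for Trib3 was replicate 2, and without it Trans against Saturated was 0.56. For both genes the SD around the diet means was among the widest on the arrays, larger than that of 98.5% of all genes for Atf3 and 98.8% for Trib3.

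**Figure D2:**
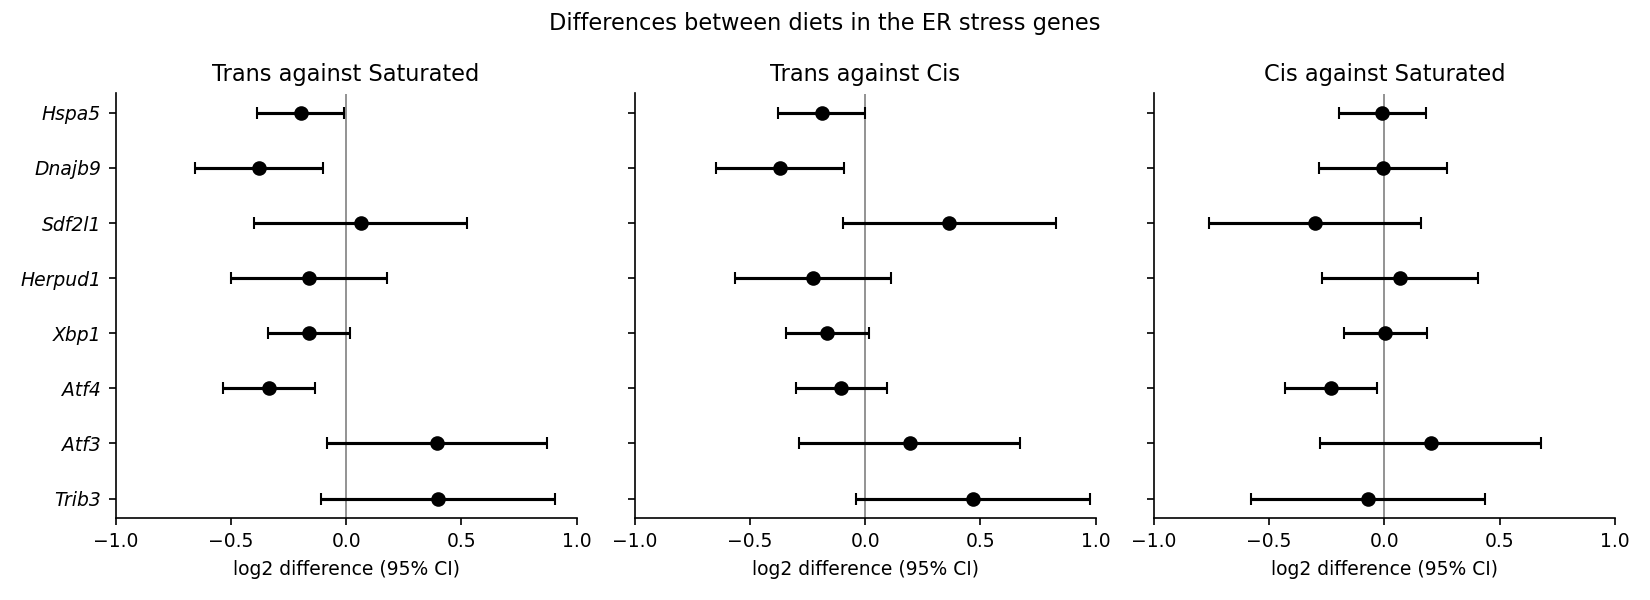
Log2 difference and 95% confidence interval of each of the 8 ER stress genes for Trans against Saturated, Trans against Cis and Cis against Saturated, from limma over 8 livers per diet. The intervals of Hspa5, Dnajb9 and Atf4 exclude 0 in Trans against Saturated before adjustment for the 35556 probe sets, and those of Atf3, Trib3 and Sdf2l1 are the widest.

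The livers of a diet were unequal in these genes, and most so in the Saturated group. The log2 SD was largest in Saturated for 6 of the 8 genes and largest in Trans for the other 2, Atf3 and Trib3. Over all genes Saturated was the widest in 27.7%, Cis in 39.7% and Trans in 32.6%. For Sdf2l1, 1 of the 6, the SDs were close, at 0.49, 0.47 and 0.44 in Saturated, Cis and Trans. The 6 genes are not independent of each other, since the same livers stood out in several of them. Saturated replicates 3 and 6 were the 2 highest livers for Hspa5, Dnajb9 and Atf4, and replicate 2 the lowest Saturated liver for these 3 genes but the highest for Xbp1 and Trib3.

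Some of the genes varied together from liver to liver, chiefly Sdf2l1, Herpud1 and Xbp1. Over the 24 livers, after each diet mean was removed, 28 pairs of the 8 genes were compared, and 5 pairs had an adjusted p under 0.05 (permutation test of Pearson's r within diets, two-sided, 100000 resamples, Benjamini-Hochberg over the 28 pairs). The closest was Herpud1 with Sdf2l1, at r = 0.67 (permutation p = 0.000780, adjusted p = 0.0218) and Spearman's rho = 0.67 (permutation p = 0.00115, adjusted p = 0.0291). Within Saturated, Cis and Trans livers r was 0.94, 0.34 and 0.66, and without the 2 livers farthest from the median of Herpud1 it was 0.65 (permutation p = 0.00346).

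Hspa5 with Sdf2l1 gave r = 0.63 (permutation p = 0.00199, adjusted p = 0.0279) and rho = 0.60 (permutation p = 0.00446, adjusted p = 0.0416). Its r was 0.70, 0.61 and 0.63 within the 3 diets in the same order, and 0.47 without Saturated replicates 3 and 6 (permutation p = 0.0294). Xbp1 with Herpud1 gave r = 0.60 (adjusted p = 0.0379 by permutation) and rho = 0.56 (adjusted p = 0.0559 by permutation), and r = 0.82, 0.50 and 0.36 within the diets. Xbp1 with Sdf2l1 gave r = 0.58 (adjusted p = 0.0379 by permutation) and rho = 0.64 (adjusted p = 0.0291 by permutation), and r = 0.74, 0.21 and 0.66 within the diets. These 2 pairs were at r = 0.47 and 0.49 without Trans replicate 6 and Saturated replicate 7. Herpud1 with Trib3 was at r = 0.56 (adjusted p = 0.0434 by permutation) and rho = 0.47 (adjusted p = 0.115 by permutation), with r = 0.54, 0.25 and 0.75 within the diets. Without Trans replicates 6 and 7 its r was 0.36 (permutation p = 0.158), so the pair leans in part on those livers. All 5 pairs were positive in each diet.

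The number of pairs that passed depended on single livers. It was 0 without Cis replicate 3 and 0 without Saturated replicate 6, 1 without Saturated replicate 3, Saturated replicate 4 or Trans replicate 4, 2 without Saturated replicate 7 or Trans replicate 6, 3 without Cis replicate 6, Cis replicate 8, Saturated replicate 8 or Trans replicate 1, and at most 7, without Cis replicate 2. Spearman's rho passed 4 pairs, 3 of them among the 5. Atf4 and Atf3 stood outside the group: Atf4 was at r = 0.05 with Sdf2l1 and -0.06 with Herpud1, and Atf3 at -0.12 and -0.25. Atf4 was instead nearest to Dnajb9, at r = 0.55 (permutation p = 0.0200, adjusted p = 0.0878), though rho was 0.31. Hspa5 with Dnajb9 was at r = 0.52 (adjusted p = 0.181 by permutation) and came down to 0.03 without Saturated replicates 3 and 6. Within the Saturated, Cis and Trans livers the r of this pair was 0.79, 0.45 and -0.59.

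**Figure D3:**
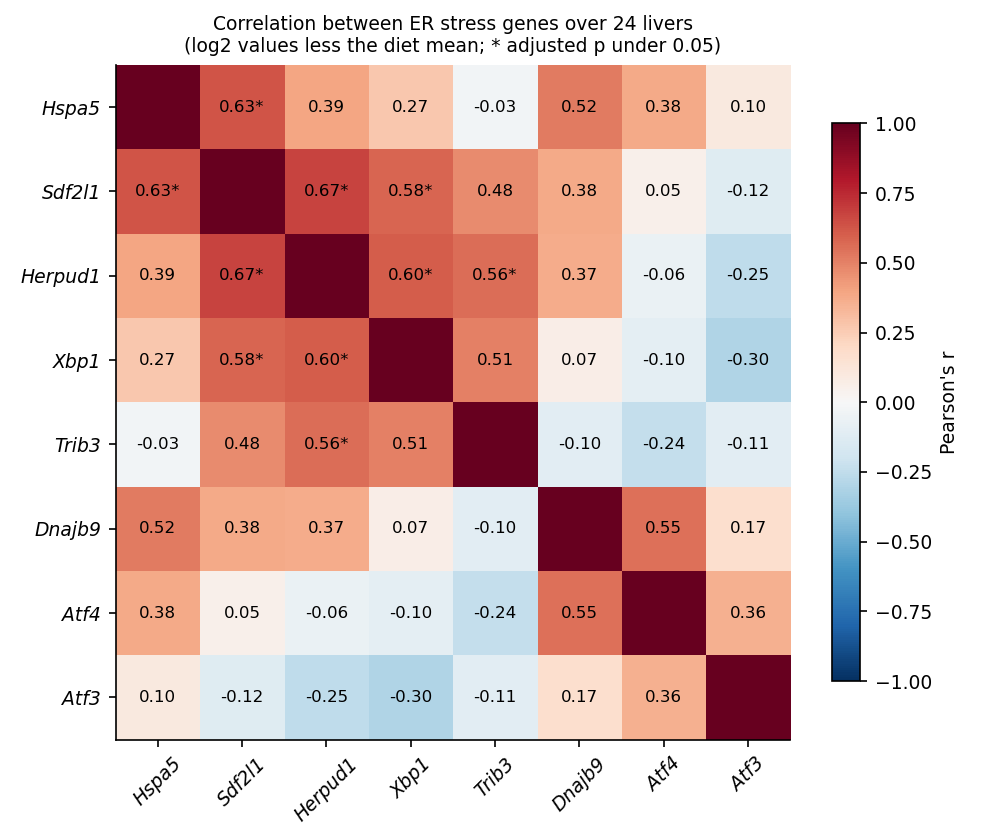
Pearson's r between the 8 ER stress genes over 24 livers, on log2 values less the diet mean, with an asterisk where the adjusted permutation p was under 0.05. Sdf2l1, Herpud1 and Xbp1 were all correlated with each other at 0.58 or more, whereas Atf3 was at or below 0.17 with every gene but Atf4.

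The gene most like Hspa5 among 8348 others with a mean signal over 20 was Creld2, an ER-resident protein induced by ER stress. Its r to Hspa5 was 0.93 over the 24 livers and 0.98, 0.74 and 0.92 within the Saturated, Cis and Trans livers. Next came Hyou1 (0.82), the ER chaperone GRP170, Syvn1 (0.82), the ubiquitin ligase HRD1, Gfpt1 (0.81), the first enzyme of the hexosamine pathway, and Prpf3 (0.81), a splicing factor. The next 3, named after their values were seen, were Manf (0.81), Kpna1 (0.79), a nuclear import receptor, and Selenos (0.77), a degradation gene. Within the Cis livers r was only 0.23 for Prpf3 and 0.39 for Kpna1, and within the Trans livers 0.40 for Manf. Within the Saturated livers these genes were at 0.90, 0.95 and 0.93. Hyou1, Syvn1, Gfpt1 and Selenos lay between 0.58 and 0.91 within each diet. These are descriptions over the same 24 arrays, with no test. Of 24 measured ER chaperones and folding enzymes, 9 had an r over 0.5 to Hspa5 (37.5%) and the median was 0.36, while over the 8348 genes 2.23% did and the median was -0.02. For Sdf2l1 it was 15 of the 24, with a median of 0.55, and its nearest genes were Hyou1 (0.84), Cdk5rap3 (0.82), Calr (0.82) and Dnajb11 (0.81). For Herpud1 it was 11 of the 24, for Dnajb9 4 of the 24, for Trib3, Xbp1 and Atf3 1 each (4.17%), and for Atf4 0. The shares over all genes were 3.85% for Sdf2l1, 5.50% for Herpud1, 3.04% for Dnajb9, 2.05% for Trib3, 2.41% for Xbp1, 3.62% for Atf3 and 2.52% for Atf4. By this threshold Trib3, Xbp1, Atf3 and Atf4 were near the background. By the median r to the 24, however, Xbp1 (0.32) and Trib3 (0.29) were above all genes (-0.02 and 0.01). So were Herpud1 (0.46) and Dnajb9 (0.25), against 0.02 and 0.04. The medians of Atf3 (-0.04) and Atf4 (-0.02) stood beside 0.02 and 0.05 over all genes.

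Creld2 and Syvn1 have a match to the same ER stress element as Hspa5, printed above. Of the genes with that element in the promoter window, 13 besides Hspa5 had a signal over 20, and their median r to Hspa5 was 0.32. Of these, 4 were over 0.5 (30.8%): Creld2, Syvn1, Alg12 (0.53) and Calr (0.53). Below it were Hsp90b1 (0.44), Pdia6 (0.34), Ero1b (0.32), Canx (0.32) and Dnajc3 (0.30), all of the folding machinery, Acnat2 (-0.14) and Acacb (-0.09) of lipid metabolism, and Hnrnpa3 (0.14) and Pan2 (0.12), which act on RNA. Hyou1 and Manf had no entry in the promoter table.

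**Figure D4:**
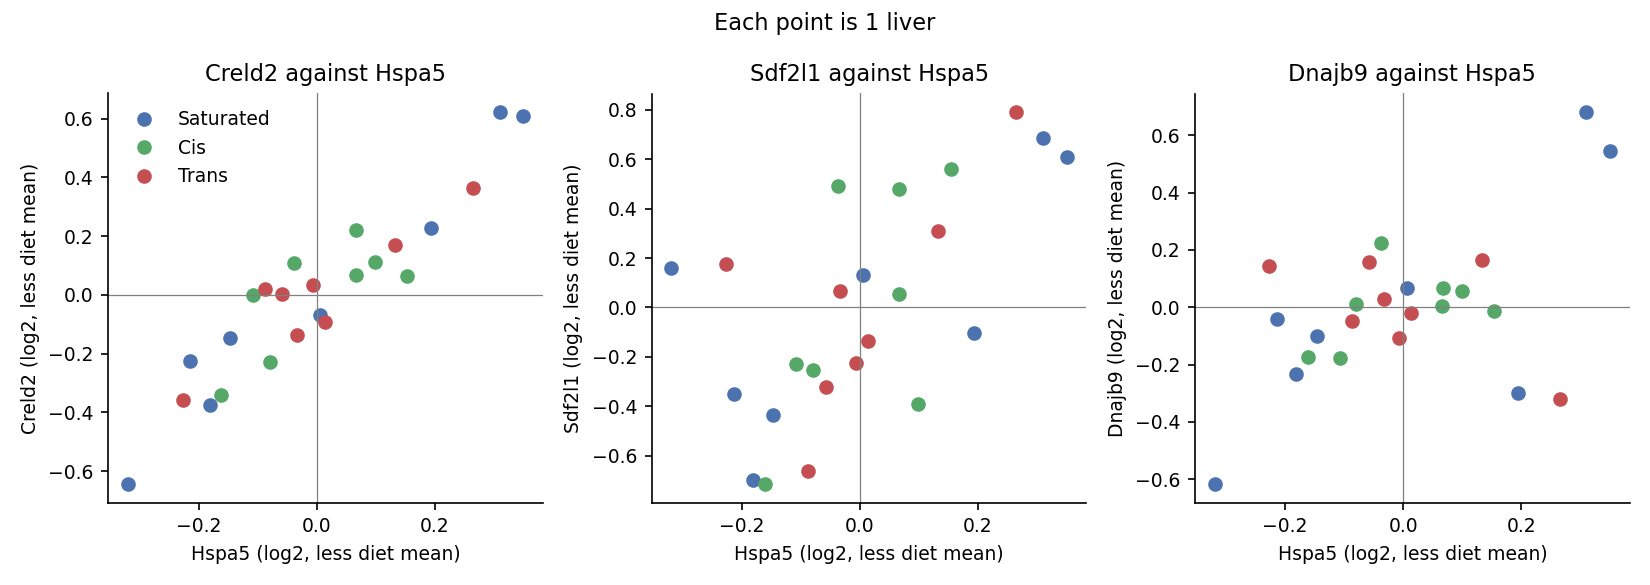
Creld2, Sdf2l1 and Dnajb9 against Hspa5 in each of 24 livers, as log2 values less the diet mean, coloured by diet. Creld2 follows Hspa5 along the whole range (r = 0.93), Sdf2l1 more loosely (0.63), and Dnajb9 (0.52) has an r of 0.03 once the 2 highest livers for Hspa5, both Saturated, are left out.

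The other members differed in what they followed. The genes nearest to Atf4 were Srf (0.74), a transcription factor of actin and growth genes, Ddx21 (0.72), an RNA helicase, Rhpn2 (0.71) and the polyunsaturated fatty acid enzymes Elovl2 (0.71) and Fads1 (0.71). For Ddx21, Rhpn2, Elovl2 and Fads1 r was between -0.03 and 0.15 within the Trans livers. The neighbours of the remaining genes were looked up after these values were seen. Herpud1 was closest to Slc39a14 (0.91), a metal transporter, Mtss1 (0.90) and Ppat (0.87), and among its nearest 8 were Tef (0.87) and Per1 (0.84), which belong to the circadian clock, and Klf15 (0.84). Over the 11 feeding state genes its r ran from -0.43 (Igfbp1) to 0.80 (Pck1), with a median of 0.14. The hour of killing of each mouse is not given in the sources used here. Dnajb9 was closest to Tmem39a (0.87), Uspl1 (0.86) and the degradation enzyme Ube2j1 (0.81), which within the Cis livers were at 0.55, 0.63 and 0.30. Xbp1 was closest to the growth factor receptor Egfr (0.81). Atf3 was closest to Tnfrsf12a (0.86), Myh9 (0.82) and Sptbn1 (0.80), with Col3a1 (0.79) and Jun (0.78) among the nearest 8, and Trib3 to Fam160b1 (0.82) and Arrdc3 (0.78).

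The rest of the ER stress pathway and, beside it, the cytosolic heat shock proteins were read from 6 lists of genes. Of their genes 0 were called in any comparison by limma. At an unadjusted p under 0.05, 5.63% of the 8349 genes with a signal over 20 were lower and 5.65% higher in Trans against Saturated, 2.71% lower and 4.54% higher in Trans against Cis, and 4.81% lower and 3.27% higher in Cis against Saturated. The smallest p among the lists was that of a sensor. Of 11 sensors and transducers, 2 were lower and 1 higher in Trans against Saturated at an unadjusted p under 0.05. Ern1, which encodes IRE1, ran from 105 through 135 to 152 in Saturated, from 105 through 116 to 132 in Cis and from 78.7 through 103 to 111 in Trans. It was lower in Trans than in Saturated by 0.40 on the log2 scale (adjusted p = 0.198 in limma), and 6 of the 8 Trans livers were below the lowest Saturated liver. Against Cis it was -0.24 (adjusted p = 0.717 in limma) and Cis against Saturated -0.16. Atf6 was lower in Trans than in Saturated by 0.23 (adjusted p = 0.349 in limma), with signals of 214 to 263 in Trans and 236 to 302 in Saturated. Creb3l3, a membrane-bound factor of the liver that is cut like ATF6, was higher by 0.15 (adjusted p = 0.591 in limma), and Rtcb, the ligase that joins the spliced Xbp1 messenger, was at 0.10. In Cis against Saturated 0 of the 11 had a p under 0.05, and Atf6, Creb3l3 and Atf6b were at -0.12, 0.11 and -0.17.

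Of 24 ER chaperones and folding enzymes, 4 were lower and 0 higher in Trans against Saturated at an unadjusted p under 0.05, and the median was -0.06. These were Pdia5 (-0.26), a disulfide isomerase, Manf (-0.37), a protein secreted upon ER stress, Erp44 (-0.16), which retains proteins in the early secretory pathway, and Ero1a (-0.16), the oxidase of the disulfide isomerases. In Cis against Saturated 1 was lower, Pdia5 (-0.20), while Dnajc3, Fkbp14 and Erp44 were at -0.10, -0.29 and -0.09. In Trans against Cis 1 was lower, Creld2 (-0.31), named after its value was seen. Of 18 genes of ER-associated degradation, 3 were lower and 0 higher in Trans against Saturated: Ube2j1 (-0.21), a ubiquitin-conjugating enzyme, Syvn1 (-0.33) and Derl2 (-0.18), a part of the exit channel. The ATPase Vcp was at 0.09. In Cis against Saturated 0 of 18 had a p under 0.05, and Selenos, Ube2j1, Niban1 and Erlec1 were at -0.22, -0.11, -0.23 and -0.09. Syvn1 ran from 87.3 to 121 in Trans, from 113 to 161 in Cis and from 96.9 to 206 in Saturated, and 7 of the 8 Trans livers were below the lowest Cis liver.

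Of 26 genes of the translocon and secretory machinery, 2 were lower in Trans against Saturated, namely Sec23b (-0.32), a coat protein of vesicles that leave the ER, and Spcs2 (-0.21), a subunit of the signal peptidase. Ssr1 and Ddost were at -0.14 each. The mean was lower for 22 of the 26 in Trans against Saturated and for 22 of the 26 in Cis against Saturated, with medians of only -0.05 and -0.03. Over all genes the mean was lower in 48.4% and 48.6%. Both comparisons use the same Saturated livers, so these counts are not independent of each other. In the second comparison 0 had a p under 0.05, and Tram1, Ddost, Stt3a and Spcs3 were at -0.12, -0.15, -0.08 and -0.08.

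In Trans against Cis 1 gene had a p under 0.05, again Sec23b (-0.29).

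The targets of ATF4 and CHOP were mixed in direction. Of 29 measured, 16 had a signal over 20, and 16 were higher and 13 lower in mean in Trans against Saturated. Sesn2, a stress-induced inhibitor of mTORC1 signalling, was higher in Trans (0.27) and in Cis (0.24) than in Saturated, and Cebpg, a partner of ATF4, was lower in both (-0.17 and -0.15), all 4 with adjusted p of 0.595 or more in limma. Eif4ebp1 and Nupr1 were at 0.12 and 0.34 in Trans against Saturated, and Tnfrsf10b and Stc2, both dim, at 0.16 and 0.23 in Cis against Saturated. In Trans against Cis, Nupr1, a small stress-induced chromatin protein, was higher by 0.51 (adjusted p = 0.708 in limma). The cytosolic heat shock proteins, 9 genes, had 1 gene with a p under 0.05 in Trans against Saturated: Hspb1, which was higher in Trans by 0.46 (adjusted p = 0.545 in limma). Hspa8 and Hsph1 were at -0.16 and -0.19, and Hspd1, which acts in mitochondria, at 0.10. In Trans against Cis, Hspb1 was higher by 0.65 (adjusted p = 0.550 in limma) and Dnaja1 lower by 0.19. In Cis against Saturated 0 of the 9 had a p under 0.05, and Dnaja1, Hsp90aa1, Hspb1 and Hsph1 were at 0.12, -0.15, -0.19 and 0.11.

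**Figure D5:**
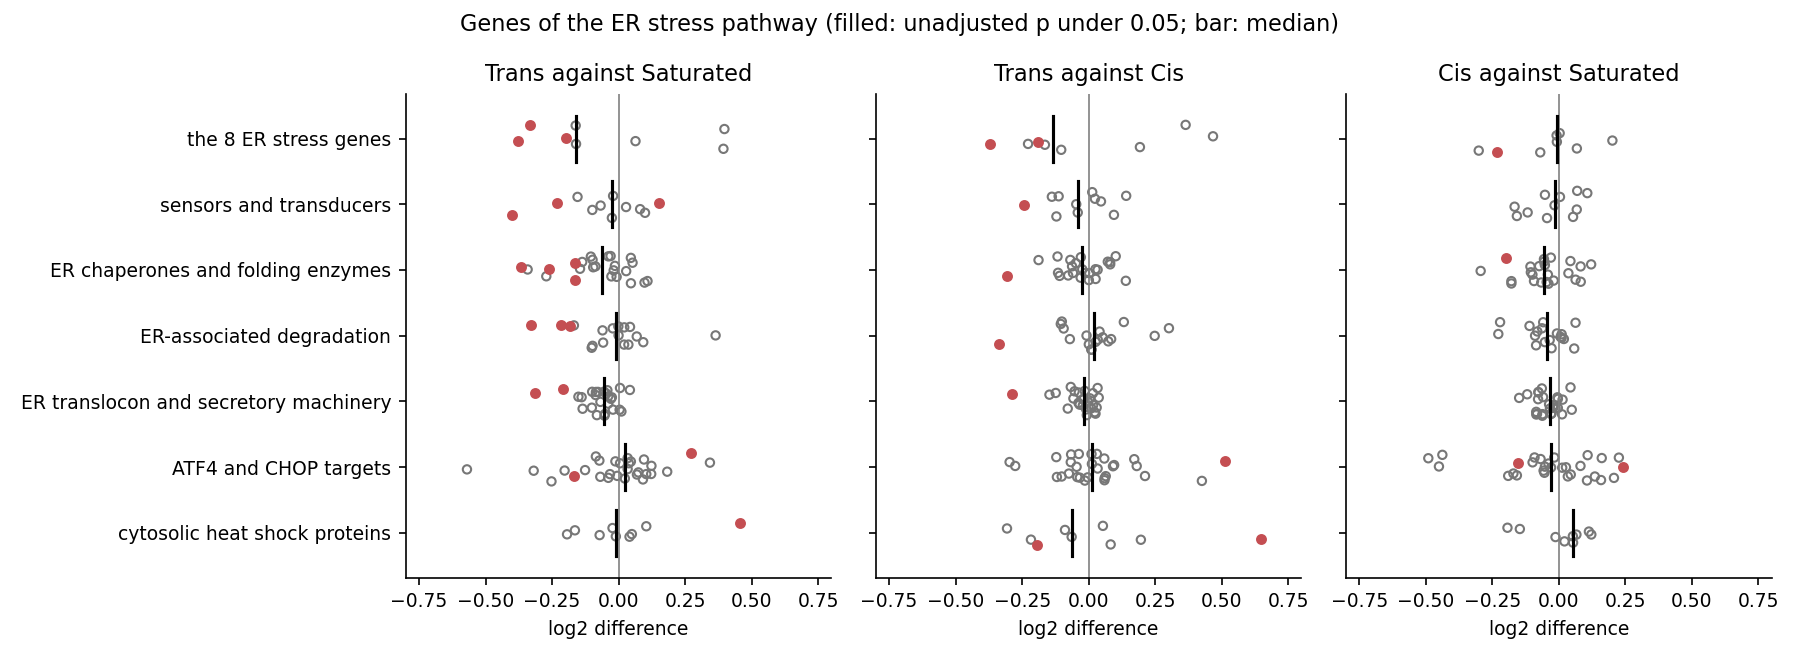
Log2 difference of every measured gene of the ER stress pathway lists and of the cytosolic heat shock proteins in each comparison, with the 8 ER stress genes at the top. Filled points had an unadjusted p under 0.05, bars are medians, and no gene passed after adjustment; in Trans against Saturated the filled points of the chaperone, degradation and secretory lists all lie below 0.

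Feeding state genes and markers of other cell types were read in the same livers, and 0 of them were called by limma. Feeding state genes had an unadjusted p under 0.05 in 3 of 11 cases in Trans against Saturated, with G6pc at -0.57, Ppargc1a at -0.33 and Cpt1a at 0.18, and Txnip was at 0.20. In Cis against Saturated they were 4 of 11, with Ppargc1a at -0.51, Irs2 at -0.51, Igfbp1 at -0.92 and Srebf1 at 0.53. Of all genes with a signal over 20, 5.63% were lower and 5.65% higher at that threshold in Trans against Saturated. The shares in Cis against Saturated were 4.81% lower and 3.27% higher. Over the 24 livers the r of these 11 genes ran from -0.38 to 0.65 with Atf4 and from -0.47 to 0.64 with Atf3, highest for Igfbp1 in both, with medians of 0.15 and 0.05. Markers of activated stellate cells, the matrix-producing cells of the liver, had a higher mean in Trans for 7 of 7 genes against both other diets. At an unadjusted p under 0.05, 3 of the 7 were higher against Saturated and 5 against Cis. Over all probe sets, 3.79% and 3.05% were higher at that threshold in these comparisons. The stellate markers had a summed signal of 131 to 416 in Trans, 111 to 200 in Cis and 119 to 176 in Saturated. Atf3 was at a median r of 0.57 to the 4 of these with a signal over 20. The 9 hepatocyte markers, all above 20, summed to between 36530 and 41972 in every diet, and those of Kupffer cells to 785 to 1610 in Trans, 895 to 1588 in Cis and 932 to 1769 in Saturated. The Kupffer markers had a lower mean than in Saturated for 7 of 8 genes in Trans and 8 of 8 in Cis. Markers of recruited and lipid-associated macrophages, of which 1 of 5 had a signal over 20, had a higher mean in Trans for 5 of 5 genes against both other diets, with 2 at an unadjusted p under 0.05 against Cis (Ccr2 at 0.46 and Cd9 at 0.46) and 0 against Saturated, and summed to 76.9 to 169 in Trans, 55.3 to 98.4 in Cis and 73.8 to 114 in Saturated. Markers of T and NK cells and of neutrophils were all under 20. Other lists leaned to 1 side as well. Endothelial markers had a higher mean in Trans than in Cis for 8 of 8 genes and a lower mean in Cis than in Saturated for 8 of 8. B and plasma cell markers were lower in Trans than in Cis for 5 of 5, and hepatocyte markers lower in Trans than in Saturated for 8 of 9. Over all genes the mean was lower in 48.4% in Trans against Saturated, 49.5% in Trans against Cis and 48.6% in Cis against Saturated. The part of feeding state and cell makeup in the differences above was not tested, and in whole liver fewer cells of a type and less RNA per cell cannot be told apart.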

How the data were processed

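Liver RNA with an integrity number over 8.0 was hybridised to Affymetrix Mouse Gene 1.1 ST arrays, 100 ng per mouse and 1 array for each of 24 mice. The deposited log2 values had been background-corrected, normalized and summarised per probe set by the authors with robust multichip averaging (RMA), which also draws arrays towards a common distribution. Of 35556 probe sets, 21218 were assigned to 1 gene, 1881 to several and 12457 to none, and only the first were used for named genes. Array medians lay between 2.94 and 3.06 (log2), and each array's correlation with the rest, as a median, between 0.975 (Trans replicate 4) and 0.986; the number of arrays limits the precision.

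Groups were taken from the sample labels. The 3 diets were fitted together with limma 3.58.1 in R 4.3.3 (lmFit and eBayes, 21 residual degrees of freedom), and p-values were adjusted over all probe sets by the Benjamini-Hochberg method and called under 0.05. These p-values measure the spread between mice. No scan date or plate position is given in the sources used here, so no batch was examined. Signals are 2 raised to the log2 value. Correlations were computed with Python 3.11.15 and numpy 2.4.6 on log2 values less the diet mean, with livers permuted within diets, over the 28 pairs of the 8 measured genes. Scripts were tested on simulated data.

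The 10 genes and the pathway and marker lists were chosen with earlier results of these data known, so no list was tested as a set. All 10 genes are named, and from each pathway list the 4 genes of smallest p in Trans against Saturated and in Cis against Saturated. The 5 genes most like a member were named for Hspa5 and for Atf4, which has an outlying liver. Alternatives were a filter on signal, a fit of 2 diets, array weights, trended and robust estimation, quantile normalization, median centring, the mean over probe sets of a gene, the replicate number as a block, the methods' Tukey post hoc test, leaving out each liver and, chosen after seeing the data, leaving out the 2 livers of lowest array correlation.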

Additional observations from a re-analysis of the deposited data

Results flagged for a closer look

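Atf4 had a single low liver in the Saturated group. Its signal was 117 in Saturated replicate 2 and 156 in the next lowest liver, a gap beyond the critical value of Dixon's test for 8 samples. This was the only one of 24 gene and diet combinations to pass, and chance passes about 1 in 20. The same liver had the lowest Hspa5 (1277) and Dnajb9 (182) and the highest Trib3 (24.3) and Xbp1 (570) of the Saturated group.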

How the results depend on the processing

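Over all alternatives other than Tukey's test, 0 of the 8 genes were called in each comparison, and the median difference of the 8 genes stayed below 0 in Trans against Saturated and in Trans against Cis. The median log2 difference of the members, Cis against Saturated, lay between -0.038 and 0.036, and was above 0 with median centring and without Cis replicate 2, Cis replicate 4, Saturated replicate 3 or Saturated replicate 6. The methods' Tukey post hoc test, unadjusted over probe sets, passed 2 genes in Trans against Saturated and 1 in Trans against Cis, and 1180, 947 and 1011 probe sets in the 3 comparisons, Cis against Saturated last. Probe sets called in Trans against Saturated, 3 as reported, were 5 with the filter on signal, 5 with the replicate block, 5 with the mean over probe sets, 1 with median centring, and 0 with 2 diets in the fit, with adjusted Tukey p and without the 2 livers of lowest array correlation. In Trans against Cis, 1 as reported, they were 0 with the filter, the 2-diet fit, the replicate block, the mean over probe sets, adjusted Tukey p and without those livers. Leaving out 1 liver gave 1 to 16 (16 without Saturated replicate 2), 0 to 2 and 0 to 3 called probe sets. The median correlation of same-numbered livers was 0.093, 0.024 and -0.027 in the 3 comparisons, against -0.012, -0.011 and 0.004 for livers of different numbers. Whether replicate numbers pair the mice is not settled by this, since a weak correlation cannot exclude pairing. The replicate block called no gene of the 8. The number of correlated pairs, 5 as reported, was 1 within Saturated livers, 0 within Cis, 0 within Trans, 0 without the 2 farthest livers, 1 without the 2 livers of lowest array correlation, and 0 to 7 when single livers were left out.

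The sign of 6 of the 24 differences of single genes turned under some alternative. For Xbp1, Cis against Saturated was -0.00189 with array weights, -0.00373 after quantile normalization and -0.0162 without the 2 livers of lowest array correlation, and with median centring it was 0.00974 for Hspa5, Cis against Saturated, and 0.0107 for Dnajb9, Cis against Saturated. Sdf2l1 in Trans against Saturated was -0.049 without the 2 livers of lowest array correlation. With single livers left out it ranged from -0.049 to 0.16. The ranges in Cis against Saturated were -0.054 to 0.042 for Hspa5, -0.046 to 0.040 for Xbp1, -0.0043 to 0.15 for Herpud1, -0.095 to 0.090 for Dnajb9 and -0.15 to 0.096 for Trib3. The cause of these changes was not tested. Atf3 and Trib3 are limited by their low signal.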
